A study of Mus musculus with 48 samples.

Results

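PPARγ is the nuclear receptor that directs the conversion of fibroblasts to fat cells, and its knockdown (KD) was read here at day 6, the last day of a differentiation course of 3T3-L1 cells. Of 48 arrays in the course, 6 were from day 6: 3 of cells transfected with siRNA against PPARγ and 3 of cells transfected with non-targeting control siRNA, numbered as replicates 1, 2 and 3 of 3 independent biological replicates. 3T3-L1 is an established mouse embryonic fibroblast line that turns into lipid-filled adipocytes when given a hormone cocktail. Before differentiation both groups received siRNA at 50 nM, either a SMARTpool of several siRNAs against PPARγ or a pooled control, by lipofection. At confluence both received 0.5 mM isobutylmethylxanthine with 0.25 µM dexamethasone for 48 hours and then 5 µg/ml insulin with 1 µM rosiglitazone, a PPARγ agonist, for 48 hours. Days were counted from rosiglitazone, so the day 6 cells, whose medium was changed every 2 days, had passed through both steps, and the controls had received the agonist as well. The siRNA pool lowered PPARγ without deleting it, and the agonist was given to both groups, which limits how far the KD cells stand for cells without the receptor.

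PPARγ works as a heterodimer with the retinoid X receptor on DNA elements made of a direct repeat of AGGTCA spaced by a single base. In fat cells it is known to switch on genes for lipid droplets, fatty acid handling, insulin-responsive glucose transport and secreted adipokines, together with C/EBPα, which it induces and which in turn maintains it. Thiazolidinediones such as rosiglitazone bind it directly and are used as insulin sensitisers.

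Every value below is a background-corrected and scaled probe intensity on the log2 scale, so that a difference of 1 is a 2-fold change, and a probe was called when its p, multiplied by the 24613 probes tested (Bonferroni), was at or below 0.05. Differences are PPARγ KD minus control, ± the standard error (SE) of the limma fit with the replicate number as a block, from 3 pairs of arrays. Levels of different probes cannot be ranked against each other. On the day 6 arrays from 33.8% to 40.4% of probes passed the background limit, a detection p below 0.01, and rank correlations between arrays ran from 0.93 to 0.96. Replicate 3 stood apart in both groups: the deviations of its arrays from their group means correlated at 0.88 with each other. With the arrays of replicates 1 and 2 they correlated between -0.83 and -0.64. Deviations from a group mean cancel within the group, so the negative values follow in part from that centring. Values are therefore given for each array. In whole-culture RNA, fewer cells of a type and less RNA per cell cannot be told apart.

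The targeted transcript was lower in every KD array. The brightest Pparg probe read 12.09, 12.02 and 12.21 in control replicates 1, 2 and 3, and 9.81, 9.81 and 9.70 in KD replicates 1, 2 and 3. The groups were far apart, and the difference of -2.33 ± 0.11 (a 5.04-fold reduction, adjusted p = 1.57e-17) was many times the spread between replicates. The other Pparg probes fell by 2.63 and 2.41, and on the dimmer of these no KD array was above background, which bounds the reduction at no less than 2.10-fold for that probe. Rxra, the dimerisation partner, had a difference of -0.47 ± 0.11 and was lower in all 3 pairs. It did not pass the Bonferroni test (adjusted p = 1), while its Benjamini-Hochberg p from the same limma fit was 0.0015.

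At the Bonferroni threshold more probes were lower than higher. At day 6, 956 of 24613 probes were called (3.88%), of which 760 were lower and 196 were higher in PPARγ KD. The share of called probes that were lower was 79.5% (exact 95% interval 76.8% to 82.0%, counting error only). That interval takes probes as independent, and the share depended more on the processing. It was 56.0% after Benjamini-Hochberg adjustment and 93.3% without replicate 2. Quantile normalization gave 754 lower and 412 higher. Benjamini-Hochberg adjustment gave 1800 lower and 1413 higher, and at an unadjusted p under 0.05 there were 2498 lower and 2787 higher. Without the replicate block 494 probes were called, and with the 6 day 6 arrays fitted alone 380 were. Each of the 956 moved the same way in all 3 replicate pairs. The KD and control arrays did not overlap for 707 probes called lower and 172 called higher, against 3007 of all 24613 probes. The calls were made on these same arrays, so neither count is separate support for them. The lower changes were also the larger ones. The median called difference was -1.0 among lower and 0.67 among higher probes, against 0.04 over all probes. A 4-fold change was passed by 125 lower and 3 higher probes, and an 8-fold change by 48 lower probes and by no higher probe. For 113 of the lower probes no KD array was above background, so their fold is a lower limit. For 8 lower probes no control array was above background either.

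**Figure D1:**
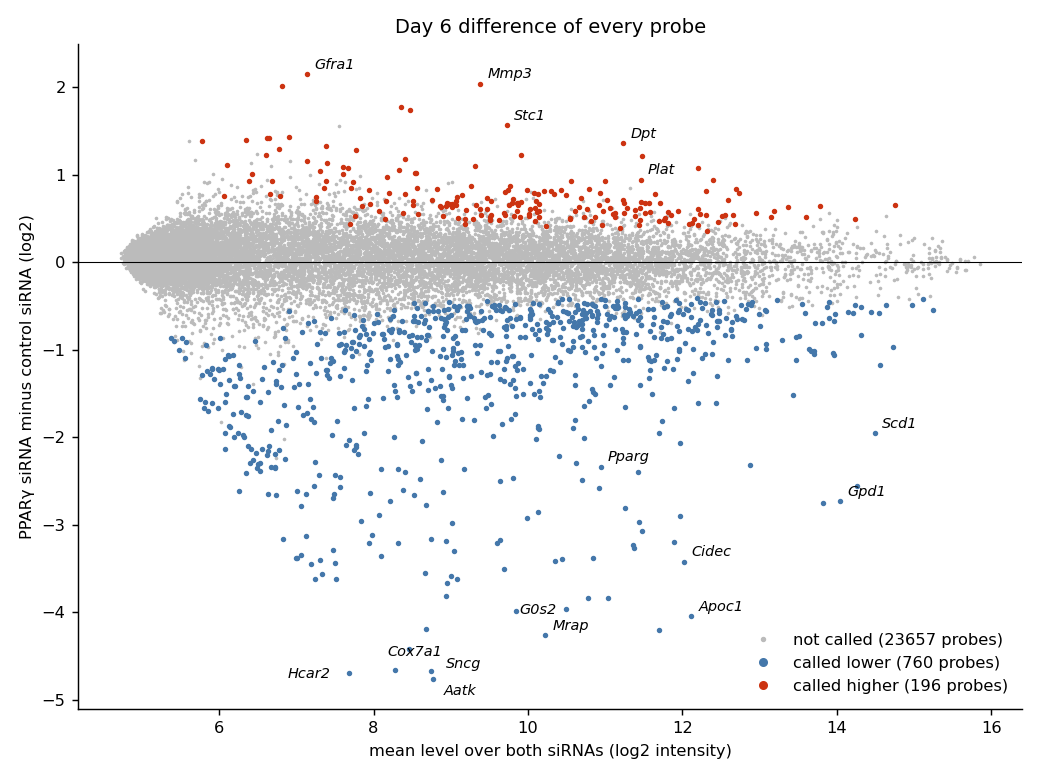
Each point is 1 of the 24613 probes, with its mean log2 intensity over both siRNA groups at day 6 on the x axis and the log2 difference PPARγ siRNA minus control siRNA on the y axis. Blue points are the 760 probes called lower and red points the 196 called higher by limma after Bonferroni adjustment; the blue points reach below -4 while few red points pass 2.

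The levels on day 6 can be set beside those of day -2, when the confluent cells were first given the cocktail. Of the 760 probes called lower, the control cells on day 6 lay more than 1.5-fold above the control cells on day -2 for 567 and within 1.5-fold for 193, and never more than 1.5-fold below. The KD cells on day 6 lay within 1.5-fold of the KD cells on day -2 for 589 of the 760, above for 130 and below for 41. So for most of these probes the control level had risen since day -2 and the KD level had not moved by that much. The probes were called for their day 6 levels, which favours high controls, and these classes were not counted over all probes. For 113 of the 760 no KD array was above background on day 6, so their KD level may only reflect the background. Of the 196 probes called higher, the control cells lay below their day -2 level for 65 and within 1.5-fold for 125. The KD cells lay above theirs for 70 of the 196 and within 1.5-fold for 124.

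Taking the brightest probe of each of 18991 gene names, 660 genes (3.48%) were called lower and 177 (0.932%) higher, and these shares are the background for the gene groups that follow. The genes with the largest reductions were of several kinds. Aatk, a kinase named for apoptosis-associated expression, read 11.30, 11.21 and 10.94 in controls and 6.49, 6.40 and 6.29 in KD, a difference of -4.76 ± 0.20. Sncg, γ-synuclein, read 11.05, 11.16 and 11.04 in controls against 6.43, 5.88 and 6.91 in KD, a difference of -4.67 ± 0.18. Both sets of KD arrays sat near background, where Sncg was above it on 1 of 3 arrays. Ltc4s, leukotriene C4 synthase, fell by 3.99 ± 0.16 and stayed above background in every KD array. The remaining genes of the 10 largest reductions were the receptors Hcar2 and Ffar2, the receptor accessory protein Mrap, apolipoproteins (Apoc1 and Apoc4), Cox7a1 and G0s2, and are described with their groups.

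**Figure D2:**
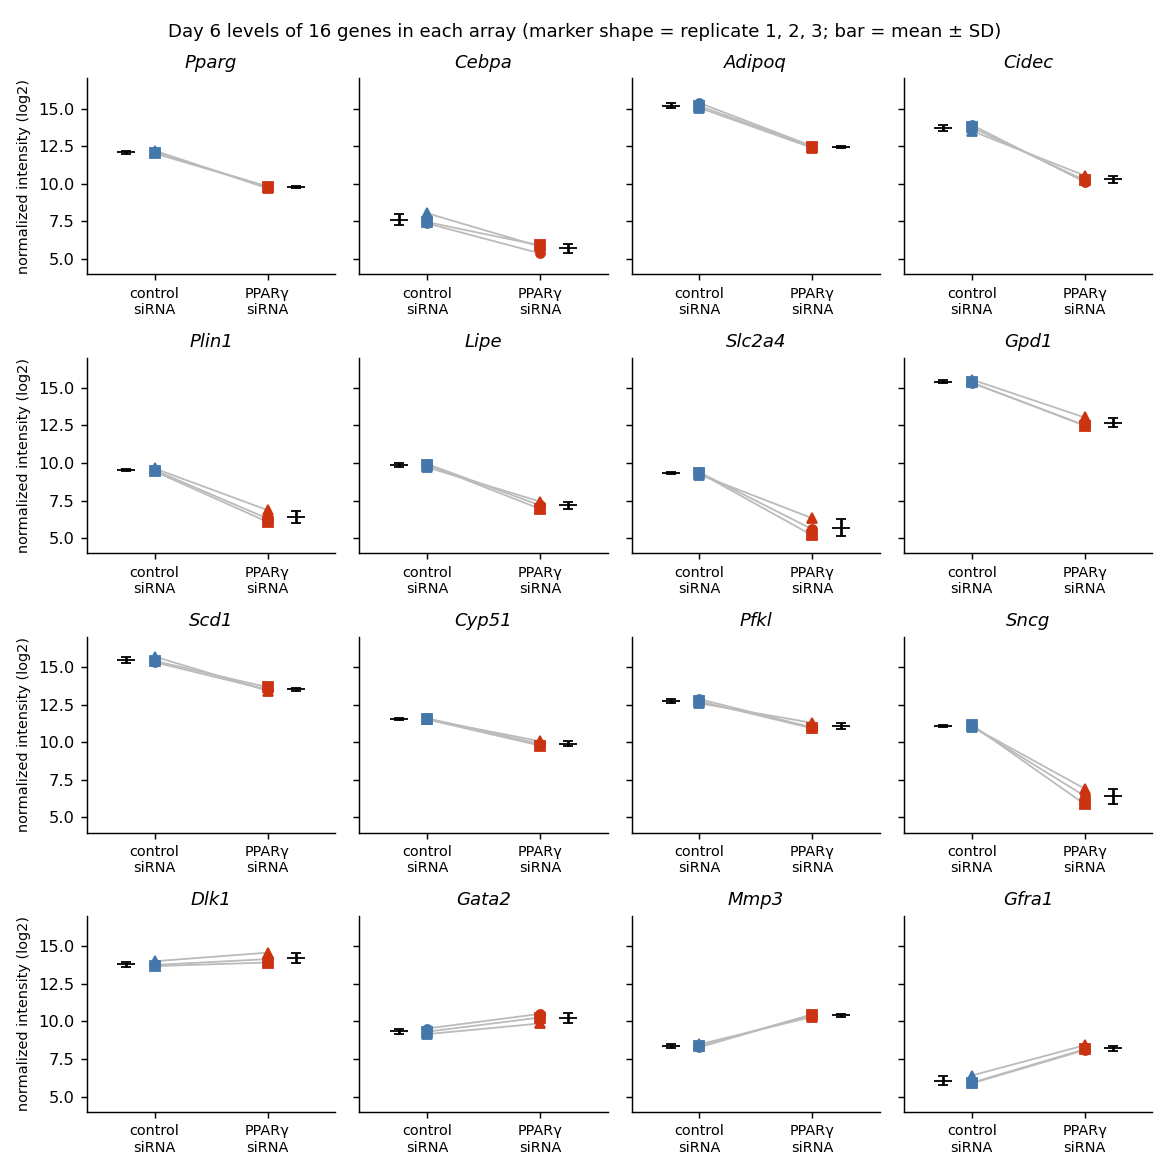
Each panel shows 1 gene, with log2 intensity on the y axis, 1 point per day 6 array of control siRNA (blue) and of PPARγ siRNA (red), lines joining the arrays of a replicate, and the mean ± SD of each group beside its points. Pparg, Cebpa and the adipocyte genes are lower in all 3 KD arrays, Dlk1 overlaps between the groups, and Gata2, Mmp3 and Gfra1 are higher in all 3 KD arrays.

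The promoters of genes that fell together are shown here because PPARγ is known to bind a direct repeat. The sequences are the RefSeq GRCm38.p6 windows from 250 bases before to 50 after the annotated start, printed 5′ to 3′ on the gene's strand. The direct repeat AGGTCANAGGTCA was searched on both strands with up to 2 mismatches at its 12 fixed bases, and capitals mark the stretch that matched it (Aqp7) or, where the repeat was not matched, a lone AGGTCA or TGACCT (Ffar2 and Apoc4). Sncg, the gene with the largest change from day 4, is shown as a window with neither. The paper does report a PPARγ and RXR binding region next to Sncg. There, mutating an element like the repeat markedly lowered the activation of a reporter by PPARγ.
Aqp7, chr4:41048087-41048386, minus strand: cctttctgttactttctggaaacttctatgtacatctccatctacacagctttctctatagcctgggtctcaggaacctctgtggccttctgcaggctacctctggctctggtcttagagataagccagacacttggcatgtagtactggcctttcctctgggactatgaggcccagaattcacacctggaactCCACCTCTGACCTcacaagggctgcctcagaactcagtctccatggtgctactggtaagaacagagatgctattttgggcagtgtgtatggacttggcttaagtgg
Ffar2, chr7:30823726-30824025, minus strand: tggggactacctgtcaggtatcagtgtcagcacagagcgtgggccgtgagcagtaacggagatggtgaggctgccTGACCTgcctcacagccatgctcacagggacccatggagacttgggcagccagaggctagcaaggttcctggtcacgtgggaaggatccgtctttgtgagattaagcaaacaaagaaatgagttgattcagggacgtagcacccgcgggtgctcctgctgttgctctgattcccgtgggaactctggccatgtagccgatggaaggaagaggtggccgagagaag
Apoc4, chr7:19681411-19681710, minus strand: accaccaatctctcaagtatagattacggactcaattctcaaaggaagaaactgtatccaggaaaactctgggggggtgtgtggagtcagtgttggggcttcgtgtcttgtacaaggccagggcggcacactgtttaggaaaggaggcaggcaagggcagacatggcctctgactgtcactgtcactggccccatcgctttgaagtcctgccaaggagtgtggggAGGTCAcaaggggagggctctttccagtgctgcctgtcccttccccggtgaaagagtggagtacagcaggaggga
Sncg, chr14:34374620-34374919, minus strand: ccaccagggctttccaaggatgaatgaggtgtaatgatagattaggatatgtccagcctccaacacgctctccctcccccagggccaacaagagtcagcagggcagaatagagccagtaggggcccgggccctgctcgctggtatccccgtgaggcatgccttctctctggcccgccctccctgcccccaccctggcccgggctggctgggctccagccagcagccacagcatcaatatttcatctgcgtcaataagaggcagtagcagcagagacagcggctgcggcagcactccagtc
The repeat was matched in 17 of 477 promoters of genes called lower (3.56%), in 2 of 127 of genes called higher (1.57%) and in 454 of 13496 of all genes tested whose promoter was at hand (3.36%). In these short windows the genes called lower therefore held the repeat about as often as all genes. The paper mapped binding itself over wider stretches around start sites, and found bound sites more often near genes induced by PPARγ. A half-site, whether alone or inside a match of the repeat, was in 13% of the lower set, 8.66% of the higher set and 13.7% of all tested. A match is a description of letters and no match says only that these letters are not in the window.

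Among 27 adipogenic transcription factors and coactivators, 6 fell and none rose (3.48% and 0.932% of all genes), and the median difference of the list was -0.16. Cebpa, which encodes the C/EBPα partner of PPARγ, read 7.38, 7.46 and 8.05 in controls and 5.38, 5.91 and 5.84 in KD, where no array was above background. It was therefore at least 2.21-fold lower. Nr1h3, the oxysterol receptor LXRα, fell by 2.26 ± 0.13 and Klf15, a glucocorticoid-induced factor of gluconeogenesis and adipogenesis, by 2.14 ± 0.26. The coactivator Ppargc1b was at least 1.54-fold lower, with controls above background on 2 of 3 arrays. The early factors did not pass the test. Cebpb, which is induced by the cocktail before PPARγ, read 12.94, 12.87 and 12.51 in controls and 12.42, 12.37 and 12.34 in KD, a difference of -0.39 ± 0.08 (adjusted p = 0.20). Cebpd overlapped between groups at -0.16 ± 0.10. Another member of the list, Esrra, had a difference of -0.63 ± 0.13. In the limma fit its Bonferroni p was 0.48 and its Benjamini-Hochberg p 0.00038. The Klf15 call was lost when replicate 1 or replicate 2 was left out.

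Lipid droplet proteins had the lowest median of the 31 pathway lists, at -1.32, with 8 of 15 genes lower and none higher. G0s2, an inhibitor of the triglyceride lipase ATGL, read 12.35, 12.39 and 12.69 in controls and 8.32, 7.98 and 9.26 in KD (-3.96 ± 0.16). Cidec, which fuses droplets, read 13.91, 13.75 and 13.52 in controls and 10.13, 10.24 and 10.55 in KD (-3.42 ± 0.22). The groups were far apart for both, and replicate 3 had the highest KD value in each. Adipogenin, listed on the array as BC054059, fell by 3.83 ± 0.19. Plin1, the perilipin that coats the adipocyte droplet and gates lipolysis, read 9.53, 9.45 and 9.64 in controls and was at least 8.29-fold lower in KD, where no array was above background. The further coats Plin4 and Plin2, fell by 1.95 ± 0.08 and 1.32 ± 0.07, whereas Plin3, which is found in most cell types, had a difference of 0.37 ± 0.09 that did not pass the test.

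Enzymes and channels of lipolysis fell in 7 of 15 genes, with a median of -0.54. Lipe, hormone-sensitive lipase, read 9.94, 9.90 and 9.72 in controls and 7.19, 6.96 and 7.44 in KD (-2.66 ± 0.15). Pnpla3, an adiponutrin-type lipid enzyme, fell by 3.81 ± 0.27 and the carboxylesterase listed as CES3 fell by 3.41 ± 0.17, although near-identical copies of carboxylesterase genes make that probe's gene uncertain. Aqp7, the channel through which glycerol leaves the fat cell, was at least 6.63-fold lower, with no KD array above background. Pnpla2, which encodes ATGL itself, fell by 2.32 ± 0.16, and the adrenergic receptor gene Adrb3, which starts lipolysis, was at least 2.78-fold lower.

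Of 15 genes of fatty acid uptake and activation 4 fell: Acsl1, which activates fatty acids, by 2.86 ± 0.16, the binding protein Fabp5 by 2.39 ± 0.18, the lipoprotein lipase Lpl by 1.18 ± 0.10 and the acyl-CoA binding protein Dbi by 0.97 ± 0.07. Fabp4, the classical adipocyte fatty acid binding protein, read 9.39, 7.62 and 6.54 in controls and 5.88, 5.09 and 5.87 in KD. The groups did not overlap, but the controls spread over nearly 3 log2 units, only 2 were above background, and the difference of -2.24 ± 0.54 did not pass (adjusted p = 1). Cd36, the fatty acid translocase, had the same kind of spread at -1.82 ± 0.47, with controls at 8.08, 7.20 and 5.50. The median of the list was -0.30.

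In triglyceride synthesis 6 of 17 genes fell and 1 rose, with a median of -0.10. Gpd1, which makes glycerol 3-phosphate, read 15.32, 15.35 and 15.54 in controls and 12.52, 12.48 and 13.02 in KD (-2.73 ± 0.14). Dgat2 and Dgat1, the acyltransferases of the last step, had differences of -2.57 ± 0.13 and -2.29 ± 0.09, and Gpat3, an acyltransferase of the initial step, by 2.37 ± 0.16. Pcx, pyruvate carboxylase, fell by 2.50 ± 0.13. Plpp3, a lipid phosphate phosphatase of the cell surface, rose by 0.64. Pck1, which feeds glycerol synthesis from pyruvate, was above background in only 2 control arrays and had a difference of -1.19 ± 0.29 (adjusted p = 1).

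Lipogenic genes fell in 13 of 24 members with a median of -0.49. Thrsp, an activator of lipogenesis, fell by 3.66 ± 0.17, and Scd1, the stearoyl-CoA desaturase, read 15.31, 15.40 and 15.69 in controls and 13.48, 13.64 and 13.42 in KD (-1.95 ± 0.12). Fasn and Acly, which build palmitate and its acetyl-CoA precursor, fell less, by 0.98 ± 0.09 and 0.84 ± 0.09. Cfd, Scd1, Adipoq and Gpd1 were among the brightest probes, at about 15 log2 units in controls, near the top of the signal range of the arrays (highest deposited signal 59842), and no saturation flag was used here.

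Cholesterol synthesis fell in 12 of 18 genes, with none higher and a median of -1.0. Cyp51, the lanosterol demethylase, read 11.59, 11.51 and 11.53 in controls and 9.88, 9.78 and 10.06 in KD (-1.64 ± 0.08). Pmvk, Lss and Mvd, enzymes of the mevalonate and sterol steps, fell by 1.62 ± 0.11, 1.45 ± 0.10 and 1.43 ± 0.11. The sterol sensor Insig1, which holds the SREBP precursors in the endoplasmic reticulum and was counted with the lipogenic genes, fell by 2.63 ± 0.13.

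**Figure D3:**
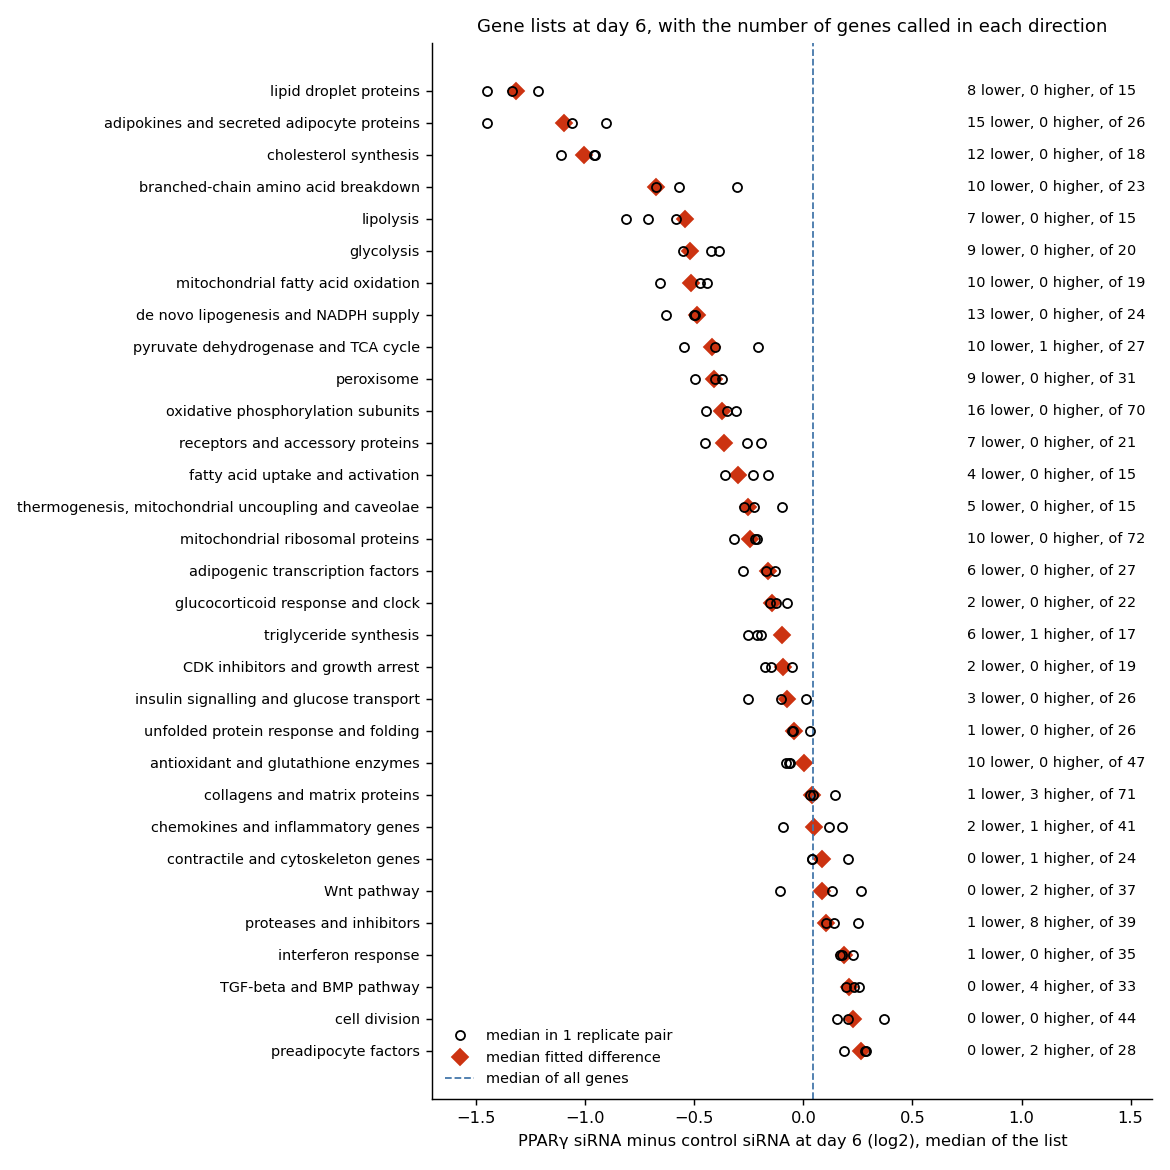
Each row is 1 gene list, with the log2 difference PPARγ siRNA minus control siRNA at day 6 on the x axis. Diamonds are medians of the fitted differences, open circles the medians in each of 3 replicate pairs, the dashed line the median of all genes (0.04), and the text gives the genes called in each direction, from lipid droplet proteins at -1.32 to preadipocyte factors at 0.26.

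The mitochondrial lists held calls almost entirely in the lower direction. Of 19 genes of fatty acid oxidation 10 fell (median -0.51), among them Acads, Hadhb, Acadvl and Etfdh by 1.27 ± 0.11, 1.09 ± 0.10, 1.05 ± 0.10 and 1.01 ± 0.07. Of 23 genes of branched-chain amino acid breakdown 10 fell (median -0.67), led by Bcat2, the mitochondrial transaminase, at -1.29 ± 0.11. Of 27 genes of pyruvate oxidation and the TCA cycle 10 fell and 1 rose (median -0.42). The member that rose was Pdp1, a phosphatase that activates pyruvate dehydrogenase, by 0.64, while Pdk1, a kinase that inhibits the same enzyme, fell by 1.5 ± 0.12. Pdp1 and Pdk1 thus moved in opposite directions, and other regulators of that enzyme are not described here.

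Of 70 oxidative phosphorylation subunits 16 fell and none rose, with a median of -0.37. The 2 largest changes were tissue-restricted subunits of cytochrome c oxidase. Cox7a1, a form found in heart, muscle and brown fat, read 10.80, 10.71 and 10.30 in controls and was at least 17.4-fold lower in KD, where no array was above background. Cox8b, also a form of muscle and brown fat, read 10.95, 10.92 and 10.79 in controls and 7.01, 6.71 and 8.07 in KD (-3.62 ± 0.25). The other subunits moved far less. Complex III had 5 of 7 genes lower (median -0.59, Cyc1 -1.11 ± 0.09), complex IV 5 of 17, complex I 5 of 30 (median -0.30) and ATP synthase 0 of 12 by limma after Bonferroni adjustment. The ATP synthase genes lay between -0.56 and -0.07, with 8 of them lower at an unadjusted p under 0.05 and 7 after Benjamini-Hochberg adjustment. Over all 18991 genes 2042 were lower unadjusted and 1516 after Benjamini-Hochberg adjustment. Mitochondrial ribosomal proteins fell in 10 of 72 genes (median -0.25), with Mrpl1 and Mrpl12 at -0.97 ± 0.10 and -0.91 ± 0.10. Of 31 peroxisome genes 9 fell (median -0.41), led by Pex11a, a PPAR-responsive factor of peroxisome division, which read 11.49, 11.46 and 11.59 in controls and 9.20, 9.26 and 9.43 in KD (-2.21 ± 0.12). The Mccc1, Sucla2 and Cox6a2 calls in these lists were lost in most of the alternative fits.

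Glucose handling included a few large falls. Slc2a4, the insulin-responsive transporter GLUT4, read 9.39, 9.36 and 9.23 in controls and 5.60, 5.20 and 6.33 in KD, at least 7.14-fold lower. Sort1, a sorting receptor of the GLUT4 vesicle, fell by 1.90 ± 0.12 and the glycogen synthase Gys1 by 1.18 ± 0.12, and these 3 of 26 were the members of the insulin list that fell (median -0.07). Slc2a1, the basal transporter GLUT1, overlapped between the groups at -0.43 ± 0.11. Of 20 glycolytic genes 9 fell and none rose (median -0.52). Pfkl, phosphofructokinase, read 12.87, 12.72 and 12.58 in controls and 10.97, 10.92 and 11.29 in KD (-1.66 ± 0.09). Aldoa, Pfkfb3 and Ldha fell by 1.51 ± 0.09, 1.14 ± 0.09 and 1.11 ± 0.10.

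The proteins that fat cells secrete fell in 15 of 26 genes, with a median of -1.10. Adipoq, adiponectin, read 15.38, 15.17 and 15.05 in controls and 12.50, 12.46 and 12.39 in KD (-2.75 ± 0.23), so that the transcript was still bright after the knockdown. Cfd, the complement protease adipsin, behaved alike, at 15.42, 15.39 and 15.79 in controls and 12.83, 12.85 and 13.26 in KD (-2.55 ± 0.20). Apoc1, a lipoprotein component, read 14.21, 14.13 and 14.07 in controls and 9.88, 10.06 and 10.35 in KD (-4.04 ± 0.16). Its neighbour in the apolipoprotein cluster, Apoc4, read 10.65, 10.58 and 10.78 in controls and was at least 18.1-fold lower. Acute-phase proteins fell as well. Hp, haptoglobin, fell by 3.23 ± 0.14, and Orm1 and Orm2, orosomucoids whose near-identical sequences may share signal, had differences of -3.83 ± 0.18 and -3.3 ± 0.28. Agt, angiotensinogen, fell by 1.79 ± 0.18. Igf1 had a difference of -0.65 ± 0.15 and Vegfa of -0.69 ± 0.12 (adjusted p = 0.053), and neither passed.

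Receptors for metabolites and hormones fell in 7 of 21 genes (median -0.36), and these were among the largest changes on the array. Hcar2, the niacin and hydroxybutyrate receptor, read 10.32, 10.08 and 9.68 in controls and was at least 11.6-fold lower in KD. Ffar2, a receptor for short-chain fatty acids, read 10.94, 10.69 and 10.70 in controls and 6.58, 6.82 and 6.34 in KD (-4.19 ± 0.19). Ffar4, the long-chain fatty acid receptor GPR120, was at least 6.15-fold lower. Mrap, the accessory protein that carries the ACTH receptor to the surface, read 12.40, 12.27 and 12.38 in controls and 7.88, 7.75 and 8.64 in KD (-4.26 ± 0.22), and Mc2r, the receptor itself, was at least 2.31-fold lower. Npy1r, a neuropeptide Y receptor, had a difference of 0.73 ± 0.21 that did not pass. In the list of uncoupling and caveola genes 5 of 15 fell, including the caveolin Cav2 by 1.80 ± 0.11, and Ucp2 did not pass at -0.60 ± 0.12.

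Among the redox and steroid enzymes, 10 of 47 antioxidant and glutathione genes fell while the list's median was 0.00. Gstz1, which acts in tyrosine breakdown, read 12.62, 12.55 and 12.77 in controls and 10.79, 10.78 and 10.93 in KD (-1.82 ± 0.07), and Mgst1, a microsomal glutathione transferase, fell by 1.06 ± 0.12. Hmox1 did not pass at -0.60 ± 0.12. Hsd11b1, which regenerates active glucocorticoid inside fat cells, had the smallest p of the genes named: controls read 13.75, 13.61 and 13.09 and KD 10.21, 10.34 and 10.31 (-3.20 ± 0.11, adjusted p = 1.98e-23).

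Of 13 genes that the study followed individually, 10 fell, a list the study chose on these samples, so that the count is no independent evidence of a direction. Besides Sncg, Adipogenin, Cidec, Plin1, Gpd1, Pcx, Agt and Mgst1 above, the kinases Mknk2 and Pim3 fell by 1.32 ± 0.09 and 1.13 ± 0.08. Pim3 did not pass without the replicate block. Ech1, a peroxisomal and mitochondrial isomerase, had a difference of -0.39 ± 0.09, and Cops7b, a COP9 signalosome subunit, of 0.32 ± 0.08, and neither passed. Pdzrn3, a PDZ-domain ubiquitin ligase, read 9.30, 9.28 and 7.28 in controls and 9.91, 10.17 and 7.58 in KD. Its level differed by about 2 log2 units between replicate 3 and the others in both groups, the groups overlapped, and the difference of 0.60 ± 0.15 did not pass.

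Marker genes were used to check what the cultures held. Adipocyte markers fell in 5 of 6 genes (median -2.93), and the sixth was Fabp4. Their summed linear intensity ran from 47979 to 60983 in controls and from 7122 to 7285 in KD, and all 6 were above background on at least 1 array. Of 8 preadipocyte and fibroblast markers none was called by limma after Bonferroni adjustment. At an unadjusted p under 0.05 5 of them were higher, and 4 were after Benjamini-Hochberg adjustment. Over all 18991 genes 2359 were higher unadjusted and 1225 after Benjamini-Hochberg adjustment. The summed intensity of the 8 markers ran from 61478 to 69075 in controls and from 80687 to 81514 in KD. These sums did not overlap, but a sum of linear intensities is set mostly by its brightest probes. Taken singly, Dlk1 and Pdgfra overlapped between the groups, and 3007 of all 24613 probes did not. Dlk1, which marks preadipocytes and restrains adipogenesis, read 13.75, 13.67 and 13.99 in controls and 14.13, 13.90 and 14.56 in KD (0.40 ± 0.09). Pdgfra and Thy1 had differences of 0.51 ± 0.12 and 0.34 ± 0.11. Of these 8 markers 7 were above background on at least 1 array, and those named were bright in both groups. None of 5 endothelial, 5 muscle and 5 epithelial markers was above background on any day 6 array, and of 8 macrophage or leukocyte markers 2 were, with summed intensities of 528 to 602 in controls and 518 to 678 in KD. Of 6 bone or cartilage markers 2 were above background, and their summed intensity ran from 7949 to 8460 in controls and from 8718 to 9397 in KD.

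The genes that rose did so by less. Gfra1, a co-receptor for glial cell line-derived factor, was above background in no control array (5.88, 5.92 and 6.40) and in every KD array (8.09, 8.15 and 8.41), at least 3.06-fold higher. Mmp3, the matrix protease stromelysin, read 8.28, 8.34 and 8.48 in controls and 10.45, 10.46 and 10.30 in KD (2.04 ± 0.12, a 4.11-fold rise). Prokr1, a prokineticin receptor, rose by 1.74 ± 0.15, Stc1, the secreted glycoprotein stanniocalcin, by 1.57 ± 0.12 and Dpt, the matrix protein dermatopontin, by 1.36 ± 0.14. The others of the 10 largest were Kera, Ear2, Trpm5, Efcab15 and Crygs, which no control array measured above background and which were at least 2.31-, 2.01-, 1.69-, 1.64- and 1.36-fold higher. The Dpt call was lost without the replicate block, and those of Kera, Ear2, Trpm5 and Crygs when replicate 1 or 2 was left out. Ear2 has near-identical ribonuclease copies, so its gene is uncertain.

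Proteases and their inhibitors held the most rises of any list: 8 of 39 rose and 1 fell, against 0.932% and 3.48% of all genes. Plat, tissue plasminogen activator, read 10.93, 10.93 and 11.11 in controls and 11.90, 12.01 and 11.89 in KD (0.94 ± 0.10). Mmp2, a gelatinase, rose by 0.65 ± 0.08, and its activator Mmp14 by 0.49 ± 0.08. Ctsk, the collagenase cathepsin K, rose by 0.68 ± 0.09, a call lost in 5 alternative fits. Timp4, a metalloprotease inhibitor of fat, went the other way and fell by 2.03 ± 0.20. The collagens and matrix proteins were nearly level, with 3 of 71 higher, 1 lower and a median of 0.04. Thbs2, a matricellular thrombospondin, rose by 0.80 ± 0.08 and Col23a1 by 1.14 ± 0.16, and Lamb3, a laminin chain, was at least 2.46-fold lower. Col1a2 and Postn overlapped between the groups, with replicate 3 lower than the others in both.

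Of 28 preadipocyte factors 2 rose and none fell, and the list's median of 0.26 was the highest of the pathway lists. Gata2, a factor that restrains adipogenesis, read 9.53, 9.31 and 9.15 in controls and 10.49, 10.26 and 9.86 in KD (0.87 ± 0.10), and Twist1 rose by 0.79 ± 0.08. Gata2 did not pass when replicate 1 or 2 was left out or without the block. Hey1 and Klf2 had differences of 0.59 ± 0.11 (adjusted p = 0.061) and -0.71 ± 0.13 (adjusted p = 0.067). Of 33 genes of TGF-β and BMP signalling 4 rose (median 0.21), among them the ligand Tgfb3 by 0.73 ± 0.08 and Ltbp1, which stores the ligand in the matrix, by 0.93 ± 0.10. Of 37 Wnt pathway genes 2 rose (median 0.09): Wnt6, a ligand, by 1.08 ± 0.10 and Fzd7, a receptor, by 0.84 ± 0.12. Tpm1 was the only contractile gene of 24 to pass, at 0.54 ± 0.09, and was lost in 6 alternative fits.

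The list of cell division genes had none of 44 called in either direction by limma after Bonferroni adjustment, with 20 higher and 1 lower at an unadjusted p under 0.05, and 11 higher and 1 lower after Benjamini-Hochberg adjustment. The corresponding counts over all 18991 genes were 2359 higher and 2042 lower unadjusted, and 1225 and 1516 after Benjamini-Hochberg. Mki67, a marker of cycling cells, read 9.64, 9.62 and 9.48 in controls and 9.96, 10.16 and 9.68 in KD (0.36 ± 0.12), and Plk1 0.51 ± 0.12 higher, and neither passed. Of 19 inhibitors of cycling, Rb1 and Cdkn2c fell by 0.82 ± 0.10 and 0.73 ± 0.10, calls that were lost without the block.

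The day 6 effect was then tested against the effect on earlier days, whose arrays are separate. Against day 5, 1 probe of 24613 (0.00406%) differed, with 1066 at an unadjusted p under 0.05, and this was Sncg. Against day 4, 42 probes differed (0.171%), 34 of them with a more negative difference on day 6 and 8 with a more positive one. Against day 2, 618 differed (2.51%), 458 more negative and 160 more positive. Without the replicate block the counts were 0, 18 and 248. Few probes thus passed the test against the neighbouring day and more against the days further back.

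Sncg was already lower in KD early in the course, by 1.17 on day 0, and the difference grew late. Its control means were 7.75, 9.72 and 11.08 on days 4, 5 and 6, while the KD means were 6.75, 6.58 and 6.41. The KD effect was -1.0, -3.14 and -4.67 on those days, and the change from day 5 of -1.54 ± 0.25 passed by limma (adjusted p = 0.013). That call was lost when any replicate was left out or without the block. It was also lost with a replicate block by day and with the variance of each probe alone. Ffar4 also rose late in the control cells, with control means of 6.34, 8.31 and 9.11 on days 4, 5 and 6. Its KD arrays were not above background on day 6, so the fitted change of -2.58 ± 0.27 from day 4 is no exact size, and its change from day 5 did not pass (adjusted p = 1). Egln3, a prolyl hydroxylase that marks hypoxia-inducible factors for destruction, changed by -2.59 ± 0.20, from an effect of -0.91 on day 4 to -3.50 ± 0.14 on day 6. Ankrd37, an ankyrin repeat protein that responds to hypoxia, had a difference of 0.05 on day 4 and fell by 2.00 ± 0.18 on day 6. On day 2 Ankrd37 and Egln3 had had differences of -1.20 and -0.79.

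Enzymes of glucose metabolism were among the 42 probes that differed from day 4. The glycolysis list had a median of -0.24 on day 2, -0.02 on day 4, -0.31 on day 5 and -0.52 on day 6, and 4 of its 20 genes differed between days 4 and 6, against 0.171% of all probes. They were Pfkl (-1.18), Ldha (-1.09), Pgk1 (-0.94) and Gapdh (-0.63). Ldha had control means of 13.43, 13.81 and 14.03 on days 4, 5 and 6 and KD means of 13.41, 13.07 and 12.91, so the groups were level on day 4 and moved apart in both directions. On day 2 Ldha and Pfkl had differences of -0.56 and -1.27, so the day 4 values lay between 2 days with a deficit. Earlier, on days -2 and 0, both were higher in KD, Ldha by 0.33 and 0.45 and Pfkl by 0.60 and 0.34. The list had medians of 0.28 and 0.34 on those days, against 0.01 and 0.07 over all genes. Pdk1 went from an effect of -0.71 on day 2 and 0.12 on day 4 to one of -1.5 on day 6 (a change of -1.62 from day 4), and Egln1, another prolyl hydroxylase of hypoxia-inducible factors, changed by -1.18. These genes were picked out of the 42 after their values were seen.

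**Figure D4:**
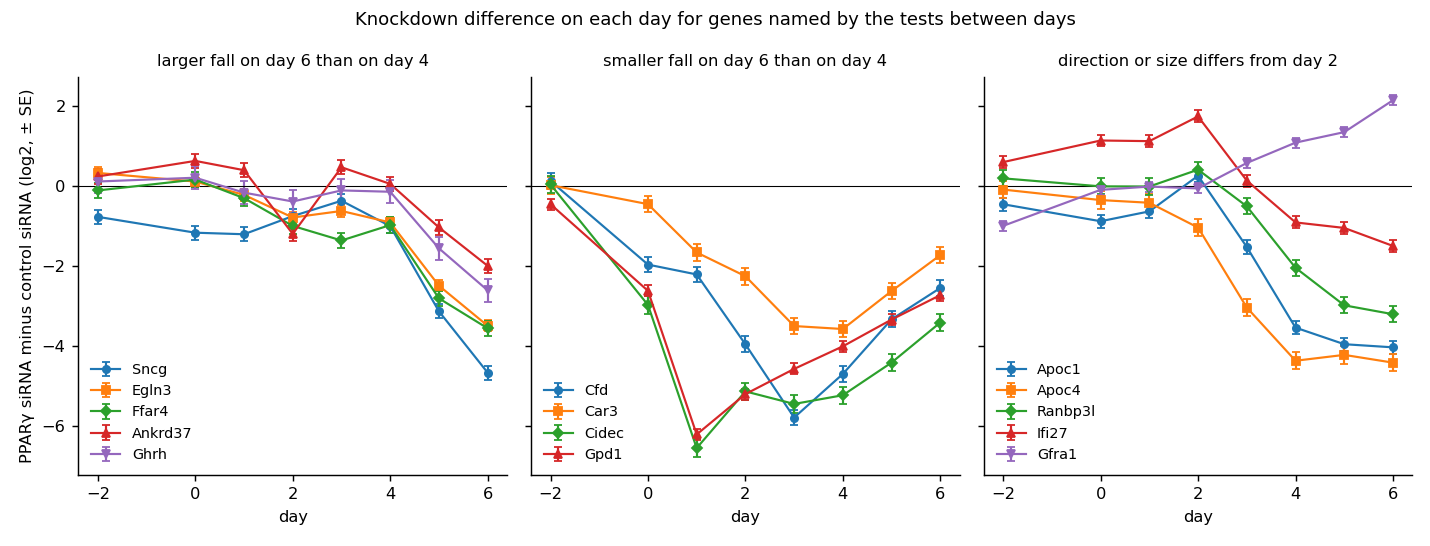
Log2 difference PPARγ siRNA minus control siRNA (y axis, with bars of 1 SE) on each day of the course (x axis, days from rosiglitazone) for the genes whose day 6 effect differed most from that of day 4 or day 2. Sncg, Egln3, Ffar4, Ankrd37 and Ghrh fall after day 4, Cfd, Car3, Cidec and Gpd1 come back up from day 4, and Apoc1, Apoc4, Ranbp3l, Ifi27 and Gfra1 move away from day 2.

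For 4 probes the fall was smaller on day 6 than on day 4, and these were Cfd, Car3, Cidec and Gpd1. Other genes of fat cells were mixed. Plin2 had a change from day 4 of -0.89. The lipid droplet list had medians of -0.60 on day 4 and -1.32, the value of Plin2, on day 6. The adipocyte markers, which include Cidec, went the other way, with medians of -3.64 on day 4 and -2.93 on day 6. Cfd had a difference of -4.71 on day 4 and -2.55 on day 6, a change of 2.15 ± 0.28. The control mean was 15.01 on day 4 and 15.53 on day 6, while the KD mean was 10.30 on day 4, 12.14 on day 5 and 12.98 on day 6. Cidec changed by 1.82 ± 0.31, with KD means of 8.44 and 10.31 and control means of 13.68 and 13.73, and Gpd1 by 1.28 ± 0.20, with KD means of 11.32 and 12.67 against 15.34 and 15.40. For these genes the control level hardly moved and the KD level came up. Car3, a carbonic anhydrase abundant in fat, changed by 1.85 and was lower by 1.73 ± 0.21 on day 6. The control levels of Cfd and Gpd1 were near the top of the signal range on both days. Over the same days Pparg itself in KD cells stayed lower, with differences of -2.39 on day 4 and -2.33 on day 6. The changes of Cfd, Car3, Cidec and Gpd1 from day 4 were lost when replicate 1 was left out.

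Among the genes that differed most between days 2 and 6, the apolipoproteins rose in the control cells in between. Apoc1 was 0.26 higher in KD on day 2, with a control mean of 8.08, and its day 6 difference was -4.04, with a control mean of 14.13. Apoc4 and Ranbp3l, a Ran-binding protein, changed by -3.38 ± 0.31 and -3.62 ± 0.28 between the same days. Ifi27, an interferon-inducible gene, had a difference of 1.74 on day 2 and of -1.5 ± 0.15 on day 6. Gfra1 changed by 2.21, from -0.06 to 2.15 ± 0.13. Gpd1 had the largest change in the positive direction, 2.48, from -5.21 on day 2. Of the 618 probes 266 had opposite signs on the 2 days, 199 had a smaller rise on day 6, 79 a smaller fall and 74 a larger fall.

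Over whole lists the course had several shapes. Cholesterol synthesis had medians of -0.21, -0.48, -0.86 and -1.0 on days 2, 4, 5 and 6. Adipokines had medians of -0.48, -0.79, -1.05 and -1.10 on the same days. The contractile genes had a median of 0.85 on day 2 and of 0.09 on day 6, and 11 of 24 differed between these days. Fatty acid oxidation stayed nearly level, from -0.66 on day 2 to -0.51 on day 6, and adipocyte markers went from -3.66 to -2.93. All genes had medians between -0.11 and 0.04 on these 4 days.

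**Figure D5:**
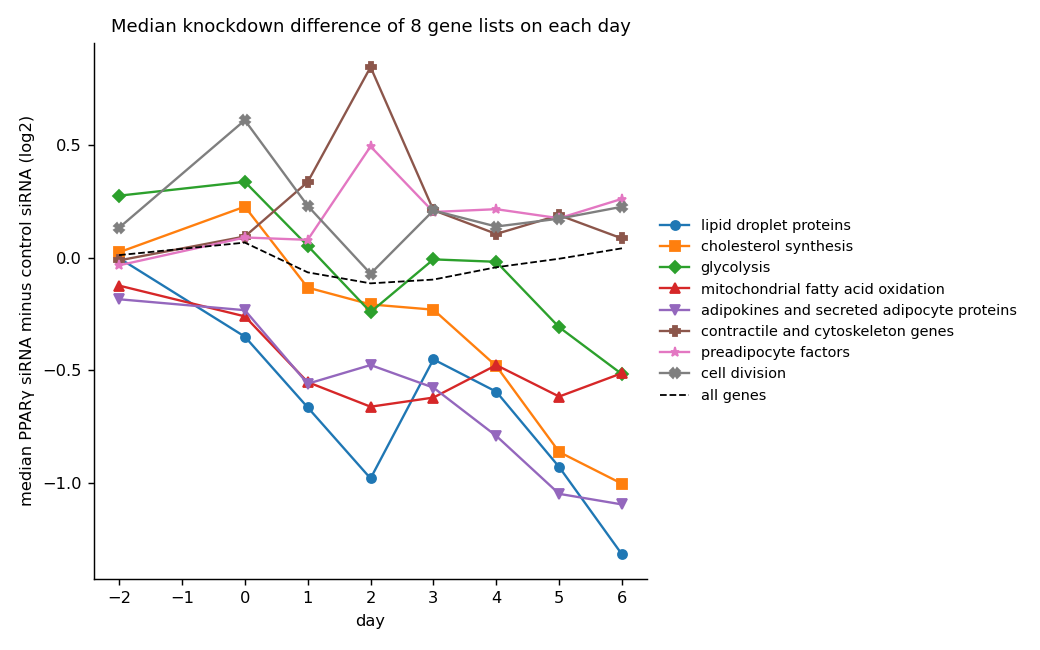
Median log2 difference PPARγ siRNA minus control siRNA (y axis) of 8 gene lists and of all genes on each day of the course (x axis, days from rosiglitazone). Lipid droplet proteins, cholesterol synthesis and glycolysis reach their lowest medians on day 6 (-1.32, -1.0 and -0.52), the contractile genes peak at 0.85 on day 2, and all genes stay near 0.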

How the data were processed

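Total RNA of the 48 cultures was labelled and hybridised to Illumina MouseRef-8 version 1.1 BeadChips. The authors deposited, per the file headers, mean bead intensity per probe from BeadStudio 3.3.7 without normalization between arrays, and a detection score, a fraction from 0 to 1 (1 minus the detection p). No column went unmapped to a sample. Intensities were background-corrected (normexp from the detection p, offset 16) and scaled on rank-invariant probes, since the study used rank-invariant normalization (day 6 factors 0.635 to 1.12), then taken to log2. limma 3.58.1 (R 4.3.3) fitted the 48 arrays together, with each siRNA on each day as a group and replicate numbers as blocks, as the study's analysis of variance had a batch term, with 30 residual degrees of freedom. The SEs and p-values rest on the spread left after the block, pooled over all days of 3 biological replicates. They do not measure the spread of the 6 day 6 arrays alone. Arrays of 1 replicate number on different days were taken as independent. A fold was given as "at least" where no array of the dimmer group was above background (detection p under 0.01), as the brighter group's mean over the lowest signal above background.

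Deviations of same-numbered arrays correlated at 0.69, 0.60 and 0.88 in the day 6 pairs. Over all days 1 pair fell under 0.1 (replicate 1 of day 0, 0.024). Control replicate 1 correlated better with KD replicate 2 (0.78) than with its own pair. The day 6 values thus set replicate 3 apart but do not show how replicates 1 and 2 pair.

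The genes named are Pparg, the 10 largest called differences each way, genes of the study's text, up to 4 called members of each list, members defining for it, and the 5 largest called differences each way between days. Other members of the lists were named after their values were seen. The comparison and the lists were chosen with earlier results of these data known. Of 18991 gene names on the array, 13869 matched a RefSeq symbol and 3473 a synonym. Members not found by name were not analysed here. The alternatives changed the normalization, background, offset, filter, block, variance, adjustment, fold minimum or arrays used. The fits were tested on simulated data.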

Additional observations from a re-analysis of the deposited data

Results flagged for a closer look

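The difference between PPARγ KD and control at day 6 was tested against the same difference on earlier days, and 1 probe passed against day 5, 42 against day 4 and 618 against day 2 (limma, Bonferroni). The genes with the largest of these differences, on the log2 scale, were as follows.

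Against day 5, Sncg changed by -1.54. It was lower in KD in all 3 pairs on day 6. The call against day 5 was lost when any replicate was left out, without the block, with a block by day and with the variance of each probe alone.

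Against day 4, the KD difference was more negative on day 6 for Sncg by -3.67, Egln3 by -2.59, Ffar4 by -2.58, Ghrh by -2.47 and Ankrd37 by -2.05. Ghrh, the growth hormone-releasing hormone gene, read 8.0, 8.04 and 6.64 in day 6 controls, 2 of them above background, and no KD array was above background. The difference was more positive on day 6 for Cfd by 2.15, Car3 by 1.85, Cidec by 1.82, Olfml1 by 1.58 and Gpd1 by 1.28. Olfml1 was above background on no day 6 array, so its day 6 values carry no order. The changes of Ghrh, Ankrd37, Car3, Cidec and Gpd1 from day 4 were lost when replicate 1 or replicate 2 was left out, that of Cfd when replicate 1 was, and that of Olfml1 when replicate 2 was.

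Against day 2, the KD difference was more negative on day 6 for Apoc1 by -4.30, Sncg by -3.92, Ranbp3l by -3.62, Apoc4 by -3.38 and Ifi27 by -3.24. It was more positive for Gpd1 by 2.48, Gfra1 by 2.21, Ttc39a by 2.16, Map7d2 by 1.95 and Ppargc1b by 1.76. Ttc39a and Map7d2 were above background on no day 6 array, and their day 2 controls lay at 7.35 and 9.98. The changes of Map7d2 and Ppargc1b were lost when replicate 1 or replicate 2 was left out.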

How the results depend on the processing

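The number of probes called at day 6 was 956. It was 494 with no replicate block, 380 with the replicate block and the 6 arrays of day 6 alone, 430 to 728 with a replicate left out (430 without replicate 1, 460 without replicate 2), and 3213 after Benjamini-Hochberg adjustment (1800 lower and 1413 higher). Quantile normalization called 1166 with 64.7% lower, against 79.5%. The counts against day 5, 4 and 2 were 1, 42 and 618. With no replicate block they were 0, 18 and 248, after Benjamini-Hochberg adjustment 1, 167 and 2913, and with a replicate left out 0 to 3, 8 to 46 and 160 to 448 (without replicate 1 0, 8 and 160, without replicate 2 0, 8 and 174). A replicate block by day gave 0 against day 5 and 345 against day 2, quantile normalization 4 against day 5 and 68 against day 4, and against day 5 offset 50 gave 2 and the variance of each probe alone 2. The probes called with the variance of each probe alone were Angptl6 and Ivd and did not include Sncg. The other alternatives kept these counts within 1.5 times. Leaving out a replicate also removes arrays, and beyond that the cause was not tested.

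None of 155 named gene values or 21 named changes between days reversed. Of the gene calls 28 were lost with no replicate block, 9 with a block by day, 27 with the 6 arrays alone, 22, 26 and 11 without replicate 1, 2 and 3, and 0 to 4 under the other background, offset, filter and normalization settings. Of 39 list medians, 5 to 8 moved beyond the spread of the pairs under another background, offset or normalization, 3 to 6 without a replicate, and 18 of 36 when dim probes were left out. Between 33.8% and 40.4% of probes were above background on day 6, so a fold of a dim gene is a limit, and n = 3 limits all small differences.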

Other observations

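The interferon, chemokine, clock and folding lists held few calls at day 6. Of 35 interferon-response genes 1 fell, Ifi27, and none rose by limma after Bonferroni adjustment. At an unadjusted p under 0.05 15 were higher and 1 lower, and after Benjamini-Hochberg adjustment 9 were higher and 1 lower. Over all 18991 genes 2359 were higher and 2042 lower unadjusted, and 1225 and 1516 after Benjamini-Hochberg adjustment. Bst2, the antiviral protein tetherin, read 10.75, 10.64 and 11.30 in controls and 11.82, 11.90 and 11.51 in KD, a difference of 0.85 ± 0.15 that did not pass (adjusted p = 0.052). Of 41 chemokine and inflammatory genes 2 fell, the NF-κB regulators Nfkbiz by 0.77 ± 0.11 and Tnfaip3 by 0.76, and the chemokine Cxcl15 rose by 1.32 ± 0.14.

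Of 22 glucocorticoid-responsive and clock genes Hsd11b1 and Dusp1 fell. Dusp1, a phosphatase of MAP kinases, read 11.97, 11.91 and 11.66 in controls and 10.90, 10.88 and 10.43 in KD (-1.11 ± 0.09), with a difference of -0.08 on day 4. Of 26 genes of the unfolded protein response 1 fell, Xbp1, by 0.65 ± 0.09, and this call was lost when replicate 2 or replicate 3 was left out. The medians of these lists were 0.19 for the interferon response, 0.05 for chemokines, -0.14 for the glucocorticoid and clock genes and -0.04 for the unfolded protein response, beside 0.04 over all genes.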
